A study of Mus musculus with 4 samples.

Results

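Genes of proline synthesis, proline breakdown and prolyl 4-hydroxylation were followed in mouse pancreatic cancer cells after halofuginone, a compound that blocks the loading of proline onto its tRNA. The 9 genes were chosen by name from known roles, and every probe carrying 1 of these names was taken, which gave 16 probes of 56304 on the array and 9 of 36918 gene names. They are Aldh18a1, Pycr1, Pycrl and Oat of synthesis, Prodh, Prodh2 and Aldh4a1 of breakdown, and P4ha1 and P4ha2 of hydroxylation. After halofuginone Aldh18a1 and Pycr1 rose and Aldh4a1 fell, Prodh2 was well above background on none of the 4 arrays, and the other 5 did not pass the test.

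Cells named K5 and K6, both from pancreatic cancer of C57BL/6 mice, were exposed to halofuginone at 100 nM for 24 h or to DMSO as control. Each line gave 1 array per treatment, so 2 halofuginone arrays were compared with 2 control arrays. The labels do not say what sets K6 apart from K5, and each is called a line only for convenience. Nothing states that the samples came from separate cultures. The p-values rest on how far the K5 and K6 changes disagree in these 4 samples only, which may be technical. They also borrow a typical spread from all tested genes, with 1 residual and 2.97 prior degrees of freedom.

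Proline is made in the mitochondrion and cytosol from glutamate, or from ornithine, by way of pyrroline carboxylate, which is then reduced to proline. Breakdown runs the other way, through proline dehydrogenase and pyrroline carboxylate dehydrogenase, back to glutamate. Proline already built into collagen chains is hydroxylated in the endoplasmic reticulum by prolyl 4-hydroxylase, a step that collagen needs to form stable triple helices, and the stroma of pancreatic cancer is known for its abundant collagen. Shortage of charged prolyl-tRNA is known to activate the kinase Gcn2 and through it the transcription factor Atf4, for which Aldh18a1 and Pycr1 are known targets.

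The promoters of the 3 genes past the threshold are shown because these genes moved in opposite directions under the same treatment. Each runs from 250 bases before to 50 bases after the start that RefSeq gives, on GRCm38.p6 and on the strand of the gene. Capitals mark matches to TGATGNAA, the core of the element bound by C/EBP and Atf4 dimers, or to TGACGT, the core of the cyclic AMP response element, both searched on both strands. Aldh18a1 is at chr19:40588414-40588713 on the minus strand, Pycr1 at chr11:120643699-120643998 on the minus strand, and Aldh4a1 at chr4:139622644-139622943 on the plus strand.
Aldh18a1: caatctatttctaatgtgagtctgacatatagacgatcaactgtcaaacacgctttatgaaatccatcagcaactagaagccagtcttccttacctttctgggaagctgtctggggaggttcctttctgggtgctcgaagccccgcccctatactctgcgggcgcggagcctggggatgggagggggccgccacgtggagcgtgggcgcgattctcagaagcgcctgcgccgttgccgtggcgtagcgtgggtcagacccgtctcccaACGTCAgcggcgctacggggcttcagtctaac
Pycr1: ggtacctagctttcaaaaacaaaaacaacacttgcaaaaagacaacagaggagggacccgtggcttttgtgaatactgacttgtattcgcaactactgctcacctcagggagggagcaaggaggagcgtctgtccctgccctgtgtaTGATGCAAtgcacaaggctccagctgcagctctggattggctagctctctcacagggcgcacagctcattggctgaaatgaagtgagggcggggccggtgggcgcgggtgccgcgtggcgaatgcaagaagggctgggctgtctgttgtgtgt
Aldh4a1: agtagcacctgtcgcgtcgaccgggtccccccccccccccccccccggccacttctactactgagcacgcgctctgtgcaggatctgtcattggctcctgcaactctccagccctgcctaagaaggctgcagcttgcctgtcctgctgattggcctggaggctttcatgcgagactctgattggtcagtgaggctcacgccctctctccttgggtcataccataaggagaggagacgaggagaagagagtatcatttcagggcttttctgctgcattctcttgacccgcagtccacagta
The capitals of Pycr1 read TGATGCAA, 103 bases before the start, and match the first motif. The capitals of Aldh18a1 read ACGTCA, from base 19 to base 24 after the start, and match TGACGT on the opposite strand. Aldh4a1 has neither set of letters in this window. The 2 motifs did not overlap in these promoters. Of the 32851 promoters in the RefSeq table, 3.97% held TGATGNAA and 7.51% held TGACGT. Among the 9 genes, 8 had a promoter in that table, of which 1 held TGATGNAA and 1 held TGACGT. Such a match is a description of letters and not a measured site.

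Values below are scaled log2 signals, where 0 is the 75th percentile of the array. Each is log2 of the spot intensity minus log2 of that percentile, taken over all spots other than controls. A value compares arrays for 1 probe and does not rank probes against each other. A gene is represented by its brightest probe and was tested where at least 2 of the 4 arrays read that probe as well above background, which held for 19092 genes. Probe positions are those of the array files on mm9. Changes are halofuginone minus control, tested with limma with the line as a block, and a gene passed at a Benjamini-Hochberg adjusted p under 0.05 over all tested genes.

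All 8 tested genes of the 9 were well above background on all 4 arrays. Of these, 2 rose, where 3.88% of all tested genes rose, and 1 fell, where 5.08% fell. The median change of the 8 was -0.52, against 0.0093 over all tested genes. The 4 synthesis genes had a median of 0.98, the 2 tested breakdown genes of -0.36 and the 2 hydroxylase genes of -0.99. Synthesis genes ran from 2.36 for Aldh18a1 to -0.90 for Oat, and breakdown genes were 1.20 for Prodh and -1.92 for Aldh4a1. The medians of these 2 groups therefore lie between genes that moved in opposite directions.

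**Figure D1:**
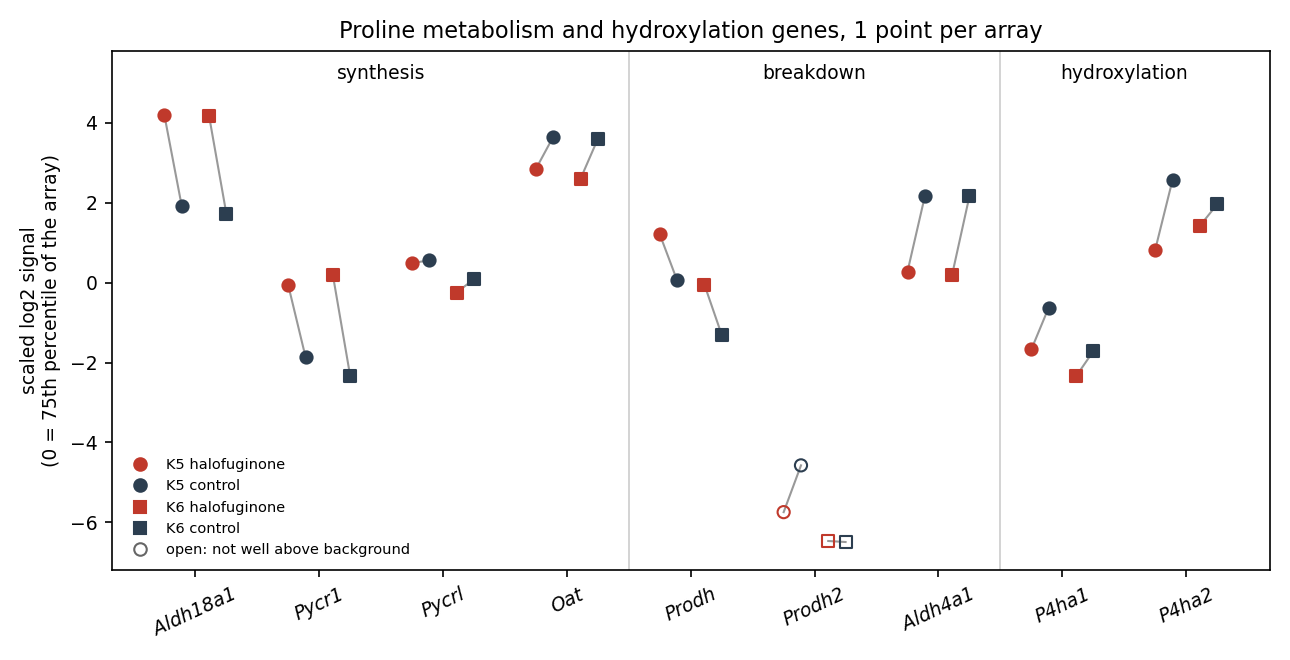
Scaled log2 signal of the brightest probe of each of the 9 genes on each of the 4 arrays, with halofuginone left of control within each line and a line joining the pair; open symbols were not well above background. Aldh18a1 and Pycr1 were higher, and Aldh4a1, Oat and P4ha2 lower, on both halofuginone arrays than on both control arrays. The share of all tested genes that separated in this way is not given. Prodh2 has open symbols only.

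Aldh18a1 encodes the bifunctional enzyme that turns glutamate into pyrroline carboxylate, the committed step of proline synthesis. Its scaled log2 signal was 4.18 in halofuginone K5 and 4.18 in halofuginone K6, against 1.91 in control K5 and 1.73 in control K6. The treated arrays almost coincided and lay well above both controls. As intensities before scaling, these were 16044 and 14971 on the halofuginone arrays, against 2606 and 2942 on the control arrays. Aldh18a1 rose by 2.36 on the log2 scale, or 5.14-fold (SE 0.26, limma adjusted p = 0.0379), with 2.27 in K5 and 2.45 in K6. The change stood at the percentile 98.1 of all tested genes. The probe lies at chr19:40624784-40624843 on the minus strand.

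Pycr1 encodes a mitochondrial pyrroline carboxylate reductase, which carries out the last step of proline synthesis. Its scaled log2 signal was -0.07 in halofuginone K5 and 0.19 in halofuginone K6, against -1.87 in control K5 and -2.34 in control K6. The groups did not overlap. Pycr1 rose by 2.16, or 4.48-fold (SE 0.31, adjusted p = 0.0443), with 1.80 in K5 and 2.53 in K6. This probe lies at chr11:120501179-120501238 on the minus strand. Another Pycr1 probe, at chr11:120497302-120497361, was well above background on both halofuginone arrays and on neither control array. It read -3.89 in halofuginone K5 and -3.12 in halofuginone K6, against -6.21 in control K5 and -6.39 in control K6, where the control values are below what the array resolves. As a bound, Pycr1 at this probe was at least 1.63-fold higher after halofuginone, which sets the mean of the bright group against the lowest signal that each dim array could resolve, or the reading of the probe itself where that was higher. Fitted in limma with every probe on its own, the brighter probe had an adjusted p of 0.0506. The dimmer probe entered that fit only through its halofuginone arrays. Its adjusted p of 0.0474 rests on control values that the arrays do not resolve, so it is not counted as support.

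Pycrl, the cytosolic isoform of the reductase, and Oat, the mitochondrial ornithine aminotransferase that makes pyrroline carboxylate from ornithine, did not pass. Pycrl read 0.49 in halofuginone K5 and -0.25 in halofuginone K6, against 0.56 in control K5 and 0.09 in control K6, and the groups overlapped. Its mean change was -0.20 (SE 0.26, adjusted p = 0.620). A dimmer Pycrl probe was well above background only in halofuginone K6 and was not tested. For Oat the signal was 2.85 in halofuginone K5 and 2.60 in halofuginone K6, against 3.65 in control K5 and 3.60 in control K6. Both halofuginone arrays were below both control arrays, with a mean change of -0.90 (SE 0.26, adjusted p = 0.103).

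**Figure D2:**
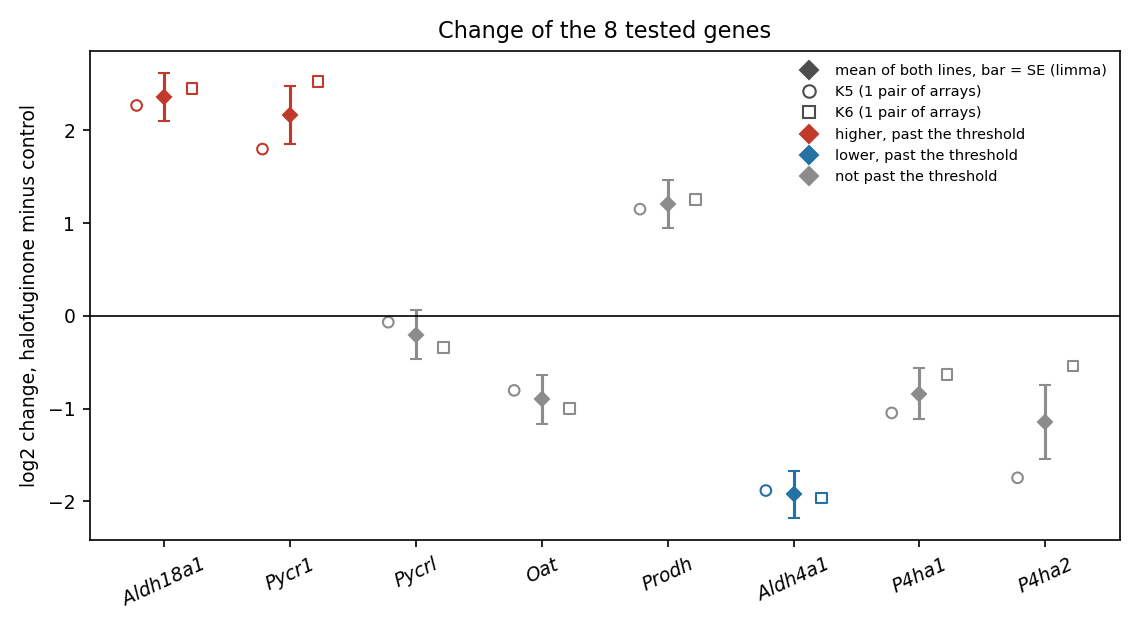
Log2 change, halofuginone minus control, of the 8 tested genes: diamonds are the mean of both lines with the SE of the limma fit, circles K5 and squares K6. Aldh18a1 and Pycr1 are above 0 in red, Aldh4a1 is below 0 in blue, and the lines are farthest apart for P4ha2.

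Prodh encodes proline dehydrogenase, the mitochondrial enzyme that oxidises proline and opens its breakdown. Its signal was 1.20 in halofuginone K5 and -0.05 in halofuginone K6, against 0.05 in control K5 and -1.31 in control K6. Each line was higher after halofuginone, but halofuginone K6 was below control K5, so the groups overlapped. The mean change was 1.20 (SE 0.26, adjusted p = 0.0653), which did not pass. Of the 3 Prodh probes, the other two were well above background on none of the arrays. Prodh2, the dehydrogenase of hydroxyproline, had 1 probe, which no array read as well above background, so its level and change could not be measured.

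Aldh4a1 encodes the pyrroline carboxylate dehydrogenase that completes the breakdown of proline to glutamate and also serves that of hydroxyproline. Its signal was 0.28 in halofuginone K5 and 0.19 in halofuginone K6, against 2.16 in control K5 and 2.16 in control K6. The lines nearly coincided under each treatment, and the groups did not overlap. In intensity these were 1070 and 946 on the halofuginone arrays, against 3094 and 3973 on the control arrays. Aldh4a1 fell by 1.92 on the log2 scale, that is 3.80-fold (SE 0.26, adjusted p = 0.0424), with -1.88 in K5 and -1.97 in K6. Its probe lies at chr4:139205546-139205605 on the plus strand. Another Aldh4a1 probe, whose 60 bases are spread over 737 bases of genome, was well above background on none of the arrays. Along the breakdown route, then, the mean log2 change was 1.20 for Prodh at its head, which did not pass, and -1.92 for Aldh4a1 at its end.

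P4ha1 and P4ha2 encode alternative catalytic alpha subunits of the collagen prolyl 4-hydroxylase. P4ha1 read -1.67 in halofuginone K5 and -2.35 in halofuginone K6, against -0.63 in control K5 and -1.72 in control K6. Each line was lower after halofuginone, while halofuginone K5 was slightly above control K6, so the groups overlapped. The mean change was -0.84 (SE 0.28, adjusted p = 0.128). The other P4ha1 probe, whose 60 bases are spread over 3351 bases of genome, had a mean change of -0.88, made up of -1.57 in K5 and -0.18 in K6 (adjusted p = 0.242 with each probe fitted on its own).

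For P4ha2 the signal was 0.82 in halofuginone K5 and 1.42 in halofuginone K6, against 2.57 in control K5 and 1.96 in control K6. Both halofuginone arrays were below both control arrays. The mean change was -1.14 with the widest SE of the 8 genes, 0.40, and did not pass (adjusted p = 0.139). The change was -1.75 in K5 and -0.54 in K6, a difference of 1.21 between the lines. Over all tested genes the median size of that difference was 0.45, and 13.8% of genes had a larger one. With 1 array per line and condition the difference was not tested. No array read the dimmer P4ha2 probe as well above background.

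Within a line the changes carry no test and were counted at 2-fold or more. Aldh18a1, Pycr1 and Prodh, 3 genes in all, reached that size upward in K5, against 14.1% of all tested genes. In the same line 3 reached it downward, namely Aldh4a1, P4ha1 and P4ha2, against 14.9% of all. In K6, Aldh18a1, Pycr1 and Prodh, again 3 genes, reached it upward, against 16.4% of all, and 1, Aldh4a1, reached it downward, also against 16.4%. Oat missed that size by a small margin in K6.

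**Figure D3:**
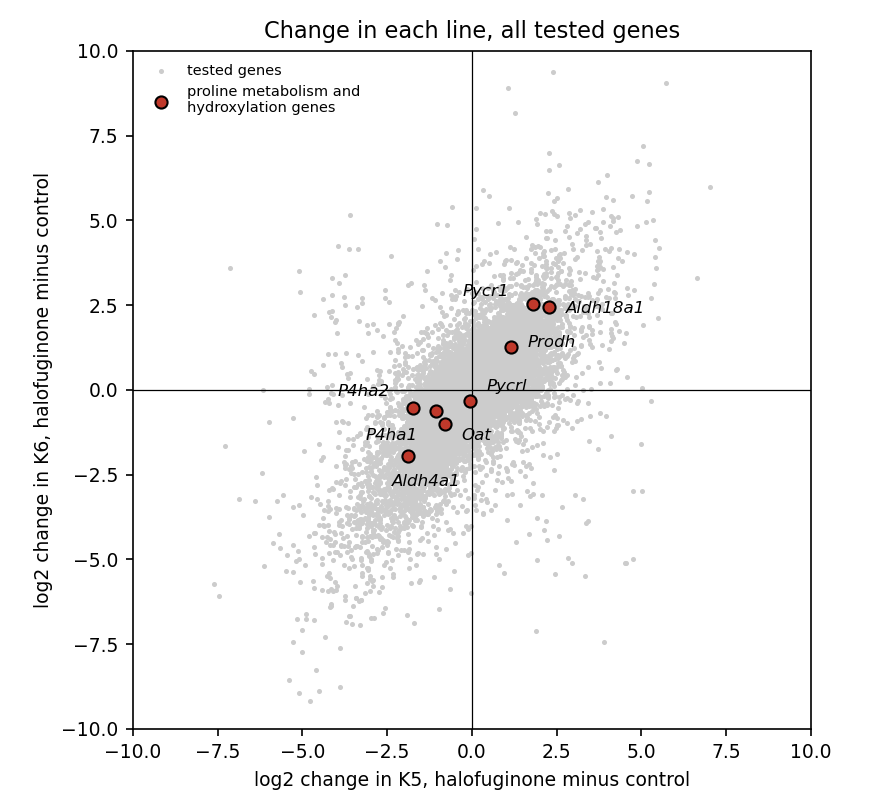
Log2 change after halofuginone in K5 (horizontal) and in K6 (vertical) for the 19092 tested genes in grey and the 8 tested proline genes in red. Aldh18a1, Pycr1 and Prodh are above 0 in both lines, and the other 5 are below 0 in both lines.

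The lines were also compared at the same treatment, K6 minus K5. None of the 8 genes passed in limma, against 0.173% of all tested genes in either direction. In the same fit 2 of the 8 had an unadjusted p under 0.05, against 2967 of all 19092 tested genes. The larger difference was that of Prodh, at -1.25 under halofuginone and -1.36 under control (mean -1.31, SE 0.26, unadjusted p = 0.00714, adjusted p = 0.161). P4ha1 differed by -0.68 under halofuginone and -1.09 under control (adjusted p = 0.282). For Aldh4a1 the mean difference was only -0.04 (SE 0.26).

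By the distance between 4 values, each gene centred on its own mean, the nearest tested genes to Aldh18a1 were Ccdc137 at 0.0683, Psph at 0.106 and Tnfaip6 at 0.129. Psph encodes the phosphatase of the last step of serine synthesis, and its log2 change was 2.29 in K5 and 2.48 in K6. Tnfaip6 was well above background on 2 of the 4 arrays. Nearest to Pycr1 were Gdap1l1 at 0.0759, Snrnp48 at 0.0800 and an unnamed transcript at 0.127. These distances rest on 4 arrays and describe likeness only.

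Other genes of the same pathways were read from 6 lists, whose counts stand against 3.88% of all tested genes that rose and 5.08% that fell. Among 9 genes that feed or drain the precursors of proline, 7 were tested, 2 rose and 1 fell, and their median change was 0.18. Odc1, the ornithine decarboxylase that draws ornithine into polyamines, rose by 2.23 (4.69-fold, adjusted p = 0.0390). Got1, the cytosolic aspartate aminotransferase, rose by 1.57 (2.98-fold, adjusted p = 0.0485). Gls2, a glutaminase that makes glutamate from glutamine, fell by 1.72 (3.30-fold, adjusted p = 0.0453). The arginases Arg1 and Arg2, which yield ornithine, had no array well above background.

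Hydroxyproline, released when collagen is degraded, has its own breakdown route. Of 3 genes on it, 2 were tested, with 1 lower and a median change of -1.65. Grhpr, the glyoxylate and hydroxypyruvate reductase, read 2.58 in halofuginone K5 and 1.21 in halofuginone K6, against 4.36 in control K5 and 3.17 in control K6, and fell by 1.87 (SE 0.26, adjusted p = 0.0436). Hoga1, the aldolase of the route, had a change of -1.43 (adjusted p = 0.0830), and Agxt had no array well above background.

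The 13 other genes of collagen hydroxylation and folding were all tested. Of these, limma called 1 lower and none higher, against 5.08% and 3.88% of all tested genes, and their median change was -0.30. The gene called lower was P4ha3, a further catalytic alpha subunit of prolyl 4-hydroxylase. It was well above background on both control arrays and on neither halofuginone array, and was at least 2.13-fold lower after halofuginone. P4ha3 entered the test only through its control arrays. Its limma adjusted p of 0.0444 rests on halofuginone values that the arrays do not resolve, so it is not counted as support. P4ha3 thus lay near the limit of the arrays, and with dim values raised to a common floor its change was -0.30 (adjusted p = 0.429). P3h2, a collagen prolyl 3-hydroxylase, had the greatest change among those that did not pass, 2.65 (adjusted p = 0.0581), and was not well above background in control K5.

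Of 6 prolyl hydroxylases that act on proteins other than collagen, 1 fell and none rose, with a median of -0.94. Egln3, an oxygen-sensing hydroxylase of hypoxia-inducible factor and itself a known hypoxia target, read -1.04 in halofuginone K5 and -5.06 in halofuginone K6, against 2.60 in control K5 and -1.24 in control K6. It was lower in each line but not well above background in halofuginone K6, and halofuginone K5 was above control K6. Egln3 fell by 3.73 (SE 0.26, adjusted p = 0.0358), 12.5-fold in K5 and at least 13.7-fold in K6. P4htm, a transmembrane prolyl hydroxylase, had the greatest change of those that did not pass, -1.63 (adjusted p = 0.0753).

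Halofuginone acts on the prolyl-tRNA synthetase encoded by Eprs, whose product joins glutamate and proline to their tRNAs. Eprs read 5.44 in halofuginone K5 and 5.58 in halofuginone K6, against 3.57 in control K5 and 3.59 in control K6. It rose by 1.93 (3.81-fold, SE 0.26, adjusted p = 0.0424). Pars2, the mitochondrial prolyl-tRNA synthetase, had a change of -0.68 (adjusted p = 0.193). Of the 2 synthetases, then, 1 rose and none fell, with a median of 0.63.

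Among 12 carriers of proline and peptidases that release or cut next to it, 9 were tested, 1 fell and none rose, with a median of -0.02, where 5.08% of all tested genes fell and 3.88% rose. Slc36a2, a proton-coupled carrier of proline and glycine, fell by 1.54 (2.90-fold, adjusted p = 0.0484). Prepl, a prolyl endopeptidase-like protein, had the greatest change of those that did not pass, -1.81 (adjusted p = 0.0651). The neutral amino acid carriers Slc38a2 and Slc1a4, named after their values were seen, had changes of 1.23 and 1.44 (adjusted p = 0.0624 and 0.0521).

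**Figure D4:**
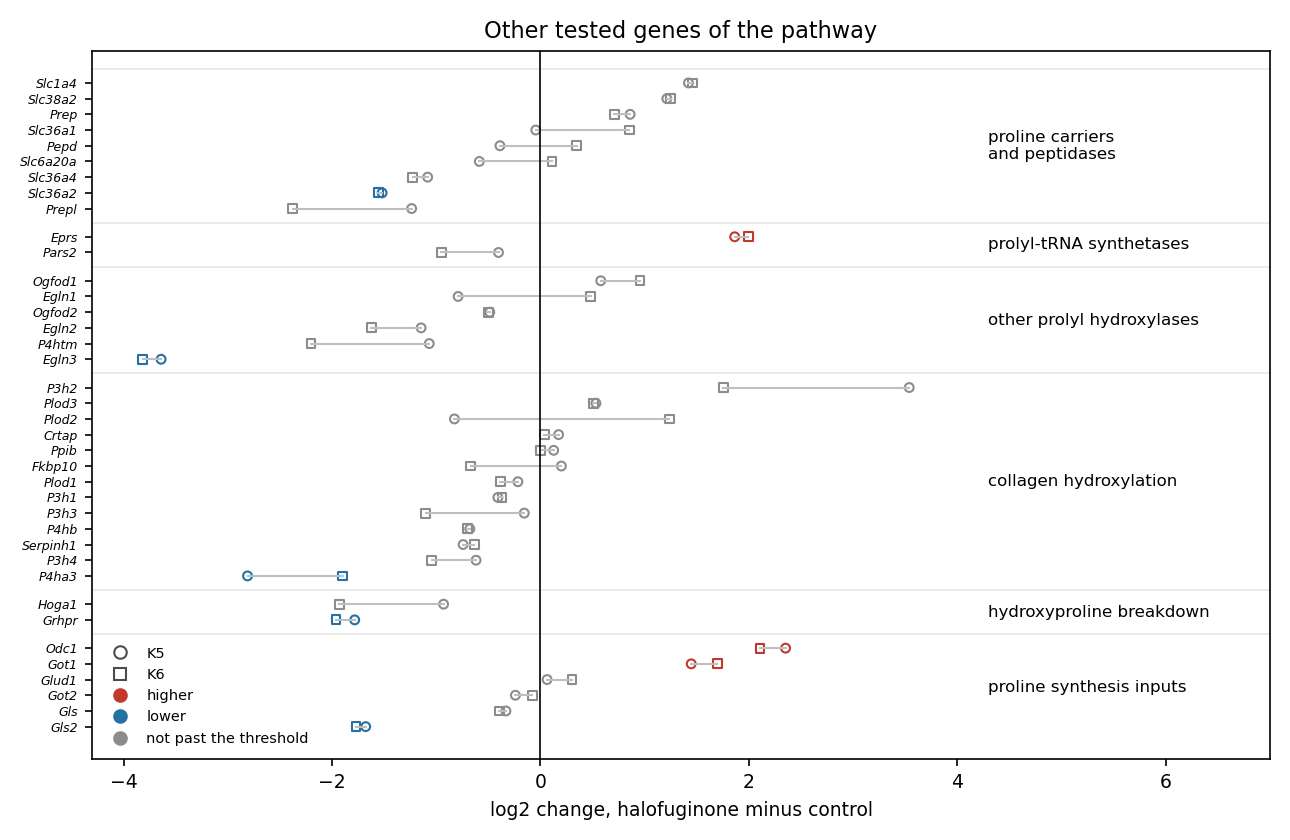
Log2 change after halofuginone in K5 (circles) and K6 (squares) for tested genes of the 6 pathway lists, coloured by the limma call for both lines. Odc1, Got1 and Eprs are red on the right, and Gls2, Grhpr, P4ha3, Egln3 and Slc36a2 are blue on the left. P4ha3 was well above background on the control arrays only.

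Markers of cell types were read on the same arrays. All 8 epithelial and ductal markers were well above background on all 4 arrays, whereas of 5 acinar markers only Cela1 was tested and Cpa1, Amy2a5, Ptf1a and Prss2 were well above background on none of the arrays. Of 7 fibroblast markers 3 were tested, with Pdgfrb and Lum well above background on none of the arrays, and of 4 endothelial markers 1 was tested. Of 6 immune markers 5 were tested and 2, Cd14 and Cd68, fell. Ptprc had a change of 0.61, Itgam of -0.29 and Cd3e of -0.83, none of which passed. The summed scaled signal of the 6 was 13.4 in halofuginone K5 and 9.80 in halofuginone K6, against 30.2 in control K5 and 27.3 in control K6. Most of that difference was Cd14, and without it the sums were 10.5 and 8.80 on the halofuginone arrays, against 11.1 and 11.0 on the control arrays. Fibroblast markers summed to 12.4 and 9.35 on the halofuginone arrays, against 19.9 and 16.1 on the control arrays, of which Acta2 made up 11.4 and 9.22, against 17.5 and 15.8. Acta2 itself did not pass (change -0.70, adjusted p = 0.154), Pdgfra had a change of 0.51, and Dcn was well above background only in halofuginone K5. Epithelial markers summed to 967 and 976 on the halofuginone arrays, against 917 and 702 on the control arrays. Without Krt18 the sums were 468 in halofuginone K5 and 474 in halofuginone K6, against 500 in control K5 and 330 in control K6. Endothelial markers summed to 0.122 and 0.449, against 0.0692 and 0.112. Without Kdr they were 0.0430 and 0.114, against 0.0569 and 0.0549. In K5 the epithelial sum was thus lower after halofuginone once Krt18 was left out. Without Kdr no endothelial marker was well above background on either K5 array or in control K6. The arrays therefore do not resolve a direction for that endothelial sum. Acinar markers, almost all Cela1, summed to 0.668 and 0.387 on the halofuginone arrays, against 3.54 and 2.16 on the control arrays. Muc1, Fbln1 and Cela1 fell and Kdr rose. Kdr was not well above background in control K5, so its rise in K5 is only a bound, at least 1.42-fold. In such bulk samples fewer cells of a type and less RNA per cell cannot be told apart. The part of these markers in the changes of the proline genes was not tested. Spots well above background made up 53.1% and 54.0% on the halofuginone arrays, against 47.2% and 48.6% on the control arrays, and the part of this difference in the changes was not tested either.

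The 3 calls among the proline genes lie close to the threshold and depend on how the arrays were processed. Aldh18a1 and Aldh4a1 passed in 9 of 13 alternatives and Pycr1 in 8, with adjusted p from 0.00417 to 0.104 for Aldh18a1, from 0.00622 to 0.104 for Aldh4a1 and from 0.00643 to 0.104 for Pycr1. No alternative turned the direction of any of the 8 changes. Both filters, the eBayes trend, the floor, the missing block and the fit of each probe on its own left the 8 changes as reported. For these genes such settings could not turn a direction or widen the range of a change. The change itself ranged from 2.23 to 2.41 for Aldh18a1, from 1.85 to 2.48 for Pycr1 and from -2.05 to -1.87 for Aldh4a1. Prodh and Oat each passed in 3 alternatives and P4ha2 in 1. In 4 alternatives limma called no gene of the array, which ended the 8 calls among the pathway lists as well. Eprs, Odc1 and Grhpr passed in the other 9, Gls2 in 8, Got1 in 7 and Slc36a2 in 6 of the 13, and Egln3 in 8 and P4ha3 in 6 of the 12 that gave them a value.

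**Figure D5:**
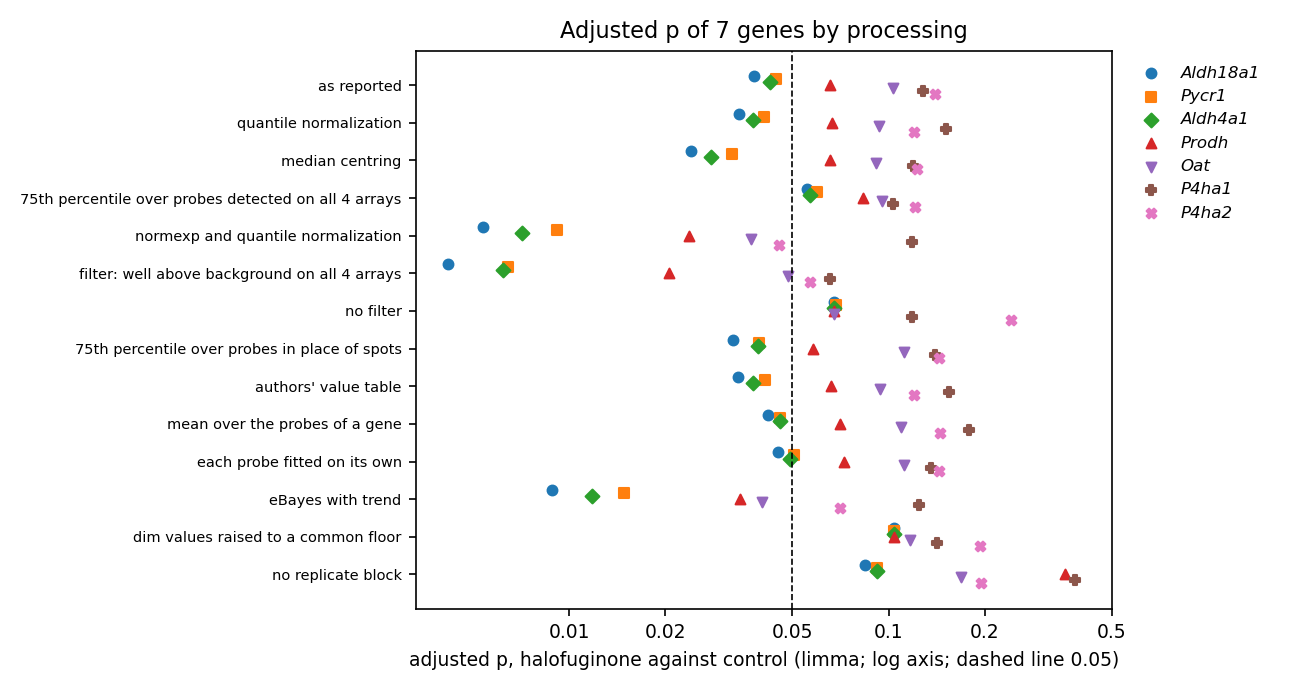
Adjusted p of the halofuginone effect from limma (log axis, dashed line at 0.05) for 7 of the proline genes under the processing reported and 13 alternatives. Aldh18a1, Pycr1 and Aldh4a1 are left of the line in most rows, and right of it in the rows for detected-probe scaling, no filter, a common floor and no replicate block.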

How the data were processed

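Total RNA of 4 samples was amplified and Cy3-labelled, per the labels' protocols, and read on Agilent arrays in 1 colour. All 4 arrays lay on 1 slide. The deposited intensity of each spot is the processed signal, extracted with Agilent Feature Extraction 10.7.1.1 per the file headers, while the submitters' processing notes name 9.5.1.1. In the authors' deposited value table, each column has a median intensity of 32.97434, and no source used here states the step that made it. That table served as an alternative only.

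Control spots were left out first, which left 56605 probes. Outlier spots were then left out of the probe values, which removed 301 of these probes, and spots of a probe were averaged. No spot of the 59305 per array was saturated. The log2 of the processed intensity that the authors deposited was scaled to the 75th percentile of its array. That percentile was taken over spots other than controls, with outlier spots included. The accessions of 10 of the 16 probes matched RefSeq, each with the same symbol, and neither Pycr1 probe was among these. Genes were fitted by lmFit and eBayes of limma 3.58.1 under R 4.3.3, with 1 residual and 2.97 prior degrees of freedom. The number of arrays limits the precision. Arrays of a number come from the same line, so the line was the block, and over tested genes the K6 minus K5 difference under halofuginone correlated with that under control at r = 0.498. A permutation test of 2 arrays against 2 with the line ignored cannot go below p = 0.333. Exchanging arrays only within a line allows fewer arrangements still, so none was used.

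The text names all 9 genes with every probe, each list gene past the threshold, the gene of each list with the greatest change that did not pass (1 such gene is not reported here), Eprs, and the 3 nearest genes to each of the 2 proline genes with the greatest change. These genes, the lists and the markers were chosen with earlier results of these data known. Alternatives covered scaling, background correction, filters, the value table, the probe of a gene, the variance prior, a floor, the line block and leaving out each line. The position of probes in exons or untranslated regions was not analysed here.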

Additional observations from a re-analysis of the deposited data

How the results depend on the processing

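Among the 9 genes, 2 rose and 1 fell in the reported setting. None rose or fell with the 75th percentile over probes detected on all 4 arrays, with no filter, with dim values raised to a common floor, or with no replicate block. In those settings limma called 0 genes of the whole array in either direction, at unadjusted p under 0.05 for 6482, 15048, 5884 and 4491 genes. Without the block, the adjusted p was 0.0841 for Aldh18a1, 0.0919 for Pycr1 and 0.0919 for Aldh4a1. Scaling to detected probes moved the median of all tested genes to -0.11, against 0.0093 as reported, and gave 0.0556, 0.0597 and 0.0568 for these genes. With each probe fitted on its own, and a gene counted by its brightest probe, 1 gene rose. The brightest Pycr1 probe then had an adjusted p of 0.0506 in limma. The number that fell was 3 with normexp (Oat and P4ha2 added), 2 with the filter on all 4 arrays and 2 with an eBayes trend (Oat added in both), and Prodh also passed in these 3 settings. Across the array these 3 settings called 1862, 1909 and 2041 genes higher and 2319, 2103 and 2163 lower, against 740 and 970 as reported, and median centring called 1499 lower. Calls for K6 against K5 over the array ranged from 0 to 191 higher and from 0 to 237 lower, against 11 and 22 as reported, and none of the 9 genes passed in any of them. The mean over probes turned the Pycr1 difference between lines to 0.10, against -0.10 as reported. Within K6, the count at least 2-fold lower was 2 with quantile normalization, median centring, detected-probe scaling, normexp or the authors' value table, and 3 at 1.5-fold, against 1 as reported. Leaving out a line left values with no test, with 3 genes at least 2-fold higher either way, and 1 lower without K5 (replicate 5) or 3 lower without K6 (replicate 6). Scaling to the percentile over probes in place of spots, chosen after seeing the data, called 945 genes higher and 1076 lower and kept the counts of 2 and 1. The cause of these shifts was not tested. Probes near background, among them P4ha3, the dimmer Pycr1 probe and Prodh2, limit what the arrays can show.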
